A study of Homo sapiens with 5 samples.

Results

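The cell-surface receptors ANTXR1 and ANTXR2, the co-receptor LRP6 and the collagen VI chains COL6A1, COL6A2 and COL6A3 were followed at the RNA level in RPE-1 cells after knock-down of FAM53C. The set was 6 of the 64252 gene rows in the count table, found by gene symbol, and it was assembled because ANTXR2 was much lower after the knock-down. The ANTXR2 difference is therefore given as a description with no test. RPE-1 is a human retinal pigment epithelial cell line with the genotype labelled WT. In the siCtrl group (3 libraries), cells received a non-targeting control siRNA (ON-TARGET Control #1). In the siFAM53C group (2 libraries), they received a pool of siRNAs against FAM53C. Both groups were transfected with 5 µM siRNA and polyA RNA was collected 48 hr later. No untransfected cells and no single siRNA of the pool were analysed here, so effects of the pool on FAM53C and on other transcripts cannot be told apart. The sources used here do not say whether libraries of a group came from separate cultures, so p-values measure the spread between these libraries, which may be technical.

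Anthrax toxin receptors are single-pass membrane proteins with a von Willebrand factor A domain that binds the protective antigen of the toxin. Their natural ligands lie in the extracellular matrix, where ANTXR2 (also called CMG2) binds collagen VI and carries it into the cell for breakdown. Loss of ANTXR2 function causes hyaline fibromatosis syndrome, in which hyaline material containing collagen VI builds up in tissues. Collagen VI is a beaded microfibril made from COL6A1 and COL6A2 together with 1 of several longer chains, most often COL6A3. LRP6 is a co-receptor for Wnt ligands that has been studied as a partner of both anthrax toxin receptors.

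Libraries held between 19260124 and 25615415 counts in total. In a principal component analysis of log2 CPM (raw counts scaled to a common library size), the leading component held 39.76% of the total variance, and high scores on it were found for siCtrl replicate 3 (33.71) and for siFAM53C replicate 2 (44.89), far from those of siCtrl replicate 1 (-31.48) and siCtrl replicate 2 (-47.39), with siFAM53C replicate 1 at 0.2642. This split crosses the siRNA groups and no label gives a batch for it, although both of the high libraries carry the number 3 in the count table (siFAM53C replicate 2 by its title). Changes are therefore also given within each side of it: siFAM53C replicate 1 minus the mean of siCtrl replicates 1 and 2 on one side, and siFAM53C replicate 2 minus siCtrl replicate 3 on the other. The score of siFAM53C replicate 1 lay between those of the siCtrl libraries, so its side was a choice that the component does not settle. Differences within the sides and fits with a term for the split depend on that choice. The split was also read from these same counts. Adjusted p-values of fits with a term for it can therefore be too small, and are given as a description. Of the cell identity markers, MITF (34 to 48.83 CPM) and OTX2 (13.53 to 17.11 CPM), transcription factors of pigment epithelium, and the keratins KRT8 and KRT18 were present. RPE65, the visual cycle isomerase of mature pigment epithelium, was listed at 0 in every library. Other pigment epithelium genes were low, with RLBP1 at no more than 0.0524 CPM, TYR 0.0849, BEST1 0.786, PMEL 1.23 and RDH5 5.26 CPM in any library. The epithelial keratin gene KRT19 reached no more than 0.262 CPM, and CDH1 and EPCAM stayed below 1 CPM. VIM, a mesenchymal intermediate filament gene, was at 3226 to 4146 CPM. Endothelial markers summed to at most 0.8489 CPM and leukocyte markers to at most 1.153 CPM in any library. A listing at 0 is not read as absence, because XBP1, a stress factor gene in use in every cell, was also listed at 0 in all 5 libraries.

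FAM53C itself, the target of the siRNAs, was measured at 60.87, 59.7 and 57.58 CPM in the 3 siCtrl libraries and at 14.17 and 22.28 CPM in the 2 siFAM53C libraries. Both siFAM53C libraries lay below every siCtrl library, and the group mean was 30.7% of that in siCtrl. This is a log2 fold change of -1.71 with a standard error (SE) of 0.20 ( adjusted p = 0.005078, edgeR quasi-likelihood test with Benjamini-Hochberg adjustment over 15341 genes). Its exons share 704 bases with genes on the opposite strand. Reads were aligned as reverse stranded per the methods, and the strand setting of the counting is not given in the sources used here.

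The transcript of ANTXR2 carries a pair of copies of the 7-base string GACAAGA in its 3' UTR, and these are shown because the string was more frequent in 3' UTRs of genes that were lower after the knock-down in earlier results on these data. Each sequence below is printed 5' to 3' as in the RNA (with T for U), with GACAAGA in capitals and 11 bases of the UTR on either side, read from GRCh38 with GENCODE 44 transcripts. In ANTXR2 the sites lie on the minus strand at chr4:79906798-79906804 and chr4:79906715-79906721, which is 624 and 707 bases after the stop codon of a 3' UTR of 6283 bases. The sites of KDELR1 (chr19:48383076-48383082, minus strand) and ME2 (chr18:50947236-50947242 and chr18:50952061-50952067, plus strand) are added because these genes were among the 5 most like ANTXR2 over the libraries. Of the others, HIPK2 holds 2 sites that are not printed, and TMEM64 and GXYLT1 hold none.
ANTXR2 site 1: gacaaaatgtaGACAAGAtgcctcaaggt
ANTXR2 site 2: tatgcactcggGACAAGAaaattaataga
KDELR1 site: tttgccttttaGACAAGAaaaaaaaatct
ME2 site 1: cccttttttcaGACAAGAagagataatgt
ME2 site 2: tttccatccaaGACAAGAccacacgtgtt
The string was searched on the transcript strand in the longest annotated 3' UTR of each gene. It was found in 1399 of 12074 tested genes with such a UTR (11.6%), and 163 genes (1.35%) held at least 2 copies, as ANTXR2 does. FAM53C itself held 1 copy and was left out of these counts. None of the other 5 members held it in the longest 3' UTR, although 2 of the 7 coding transcripts of ANTXR1 with a 3' UTR hold it in another one. In ANTXR2, 3 of 6 coding transcripts with a 3' UTR held it. Among the 1399 genes with the string 14.2% were called lower in siFAM53C, against 2.68% of the 10675 without it. Of the 163 genes with at least 2 copies, ANTXR2 among them, 22.7% were called lower. Long UTRs hold more strings of any kind, and among genes with a 3' UTR of at least 5000 bases the shares were 10.9% with it and 6.85% without it. The string was picked from genes that were lower in these same libraries, so all of these shares describe that choice and are not a test. The siRNA sequences are not given in the sources used here, and a role of these sites was not tested.

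ANTXR2 (ENSG00000163297; chromosome 4, 79901146 to 80125454, minus strand, GRCh38) was measured at 179, 172.3 and 158 CPM under siCtrl and at 42.59 and 38.32 CPM under siFAM53C. Every siFAM53C value lay far below every siCtrl value, and the values within each group were close together. The means were 169.8 ± 10.72 CPM (SD, n = 3) and 40.46 ± 3.02 CPM (SD, n = 2), so that 23.8% of the siCtrl level was left. The fitted log2 fold change was -2.07 (SE 0.12), the difference on which the set was chosen. By size of log2 fold change it stood at place 79 from the lowest of 15341 tested genes, and at place 27 of the 9301 genes with a mean of at least 10 CPM. ANTXR2 was little affected by the split between libraries, with a log2 difference of -2.04 on either side of it. Its coefficient of variation over the siCtrl libraries was 6.32%, where the median of all tested genes was 15.3%. Only 69 exon bases of ANTXR2 overlap another annotated gene, the pseudogene KPNA2P1 on the opposite strand. In bulk RNA, fewer cells that express a gene and less of its RNA per cell cannot be told apart.

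ANTXR1 (ENSG00000169604; chromosome 2, 69013176 to 69249327, plus strand), also called TEM8 and the closest relative of ANTXR2, was measured at 166.4, 168.3 and 369 CPM in siCtrl and at 148 and 306.2 CPM in siFAM53C. The groups overlapped in part, and the high libraries were siCtrl replicate 3 and siFAM53C replicate 2. The group means were 234.6 ± 116.4 CPM (SD, n = 3) and 227.1 ± 111.8 CPM (SD, n = 2), and their log2 fold change was close to 0 (-0.05, SE 0.42, adjusted p = 0.9761, edgeR). Within the siCtrl group, replicate 3 exceeded the mean of the others by 1.14 on the log2 scale, and within siFAM53C replicate 2 exceeded replicate 1 by 1.05. The coefficient of variation in siCtrl was 49.6%, the widest of the 5 members tested. On the sides of the library split the siFAM53C minus siCtrl difference was -0.18 and -0.27. With a term for the split the log2 fold change was -0.22 and its SE fell from 0.42 to 0.08 (adjusted p = 0.08872, edgeR), which did not pass the threshold. Without that term, leaving out siCtrl replicate 3 gave 0.45, leaving out siFAM53C replicate 1 gave 0.38 and leaving out siFAM53C replicate 2 gave -0.67, in each case with 1 side of the split missing from a group. The full design holds 1 high library of 3 in siCtrl and 1 of 2 in siFAM53C, so it is not balanced over the split either. Leaving out siCtrl replicate 1 or 2, which makes the groups equal in this respect, gave -0.24 in both cases.

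**Figure D1:**
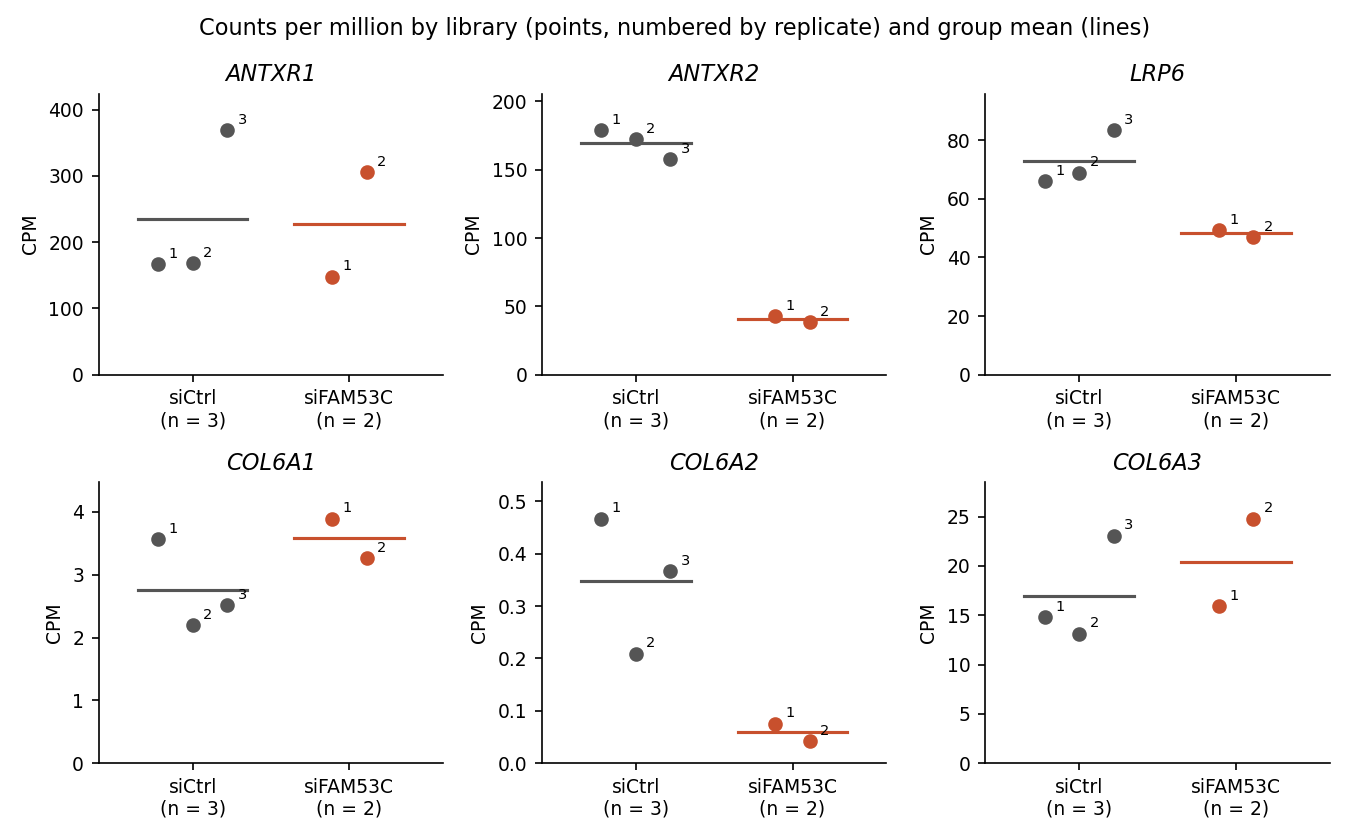
CPM (vertical axes from 0, 1 scale per gene) in each library for the 6 genes, with siCtrl in grey and siFAM53C in orange; points are libraries numbered by replicate and lines are group means. ANTXR2 falls from 158 or more CPM to 42.59 or less, whereas ANTXR1 and COL6A3 are high in siCtrl replicate 3 and siFAM53C replicate 2.

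The balance between the receptors can be followed within each library, since both are counted in the same RNA. Per kilobase of merged exons, the level of ANTXR2 divided by that of ANTXR1 was 1.9, 1.8 and 0.755 under siCtrl and 0.507 and 0.221 under siFAM53C. All siFAM53C ratios lay below all siCtrl ratios, and the mean log2 ratio moved by -2.04. No test is given, because ANTXR2 was selected on this contrast. Which receptor stood higher in siCtrl cells depended on the length used. By merged exons (10149 bases for ANTXR2 and 17891 for ANTXR1) the siCtrl levels in RPKM (CPM divided by the length in kilobases) were 16.7 ± 1.06 for ANTXR2 and 13.1 ± 6.51 for ANTXR1 (SD, n = 3), with overlapping libraries. By the longest transcript (8419 and 5858 bases) they were 20.2 ± 1.27 for ANTXR2 and 40 ± 19.9 for ANTXR1, with no overlap. In siFAM53C, ANTXR1 was above ANTXR2 by either length, at 12.7 ± 6.25 against 3.99 ± 0.298 RPKM by merged exons (SD, n = 2).

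LRP6 (ENSG00000070018; chromosome 12, 12116025 to 12267044, minus strand) was measured at 66.01, 68.91 and 83.35 CPM in siCtrl and at 49.36 and 46.9 CPM in siFAM53C. The groups did not overlap, with means of 72.76 ± 9.29 CPM (SD, n = 3) and 48.13 ± 1.742 CPM (SD, n = 2). The log2 fold change was -0.60 (SE 0.13), and the adjusted p of 0.06167 in the edgeR test did not pass the threshold of 0.05. LRP6 passed with DESeq2 (adjusted p = 0.003706), with a term for the library split (-0.61, adjusted p = 0.002689) and without siCtrl replicate 3 (-0.48, adjusted p = 0.03387), and did not pass when any other single library was left out. The highest siCtrl value came from replicate 3, and within the sides of the split the differences were -0.45 and -0.83.

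Across all 15341 genes tested, 493 were called lower in siFAM53C (3.21%) and 62 were called higher (0.404%). Of the 5 members tested, ANTXR2 was among the lower genes by the choice of the set, and none of the other 4 was called in either direction. Groups that do not overlap were common among the tested genes, with all siFAM53C libraries below all siCtrl libraries in 18.8% of genes and above them in 16.7%. Of the tested members ANTXR2 and LRP6 were below in this sense and none was above, and with so few genes these counts are not read further.

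**Figure D2:**
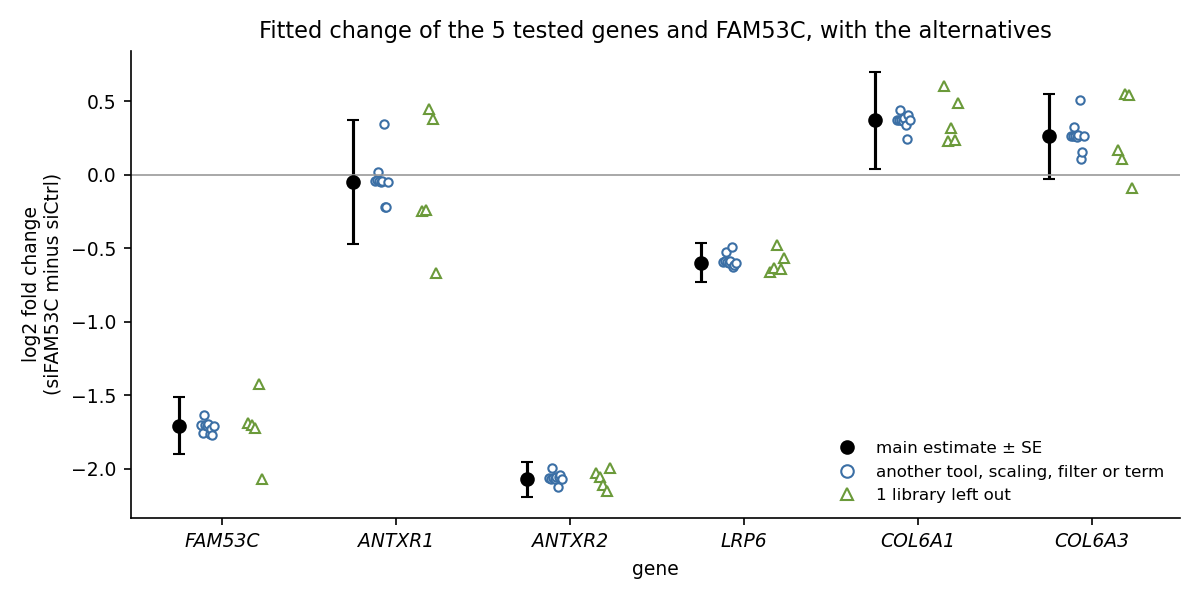
Log2 fold change (siFAM53C minus siCtrl, vertical axis) of FAM53C and the 5 members tested; black points are the main edgeR estimate with its standard error, blue circles another tool, scaling, filter or model term, and green triangles fits with 1 library left out. ANTXR2 stays between -2.153 and -1.997 under all of them, LRP6 stays below 0, and ANTXR1 and COL6A3 fall on both sides of 0.

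Of the collagen VI chains, COL6A3 and COL6A1 were counted far below the receptors. COL6A3 (ENSG00000163359; chromosome 2, 237324003 to 237414328, minus strand), the largest of the 3 chains, was measured at 14.77, 13.13 and 23.05 CPM in siCtrl and at 15.95 and 24.78 CPM in siFAM53C. The groups overlapped, and the highest library of each group was again siCtrl replicate 3 and siFAM53C replicate 2. Its log2 fold change of 0.26 was not called (SE 0.29, adjusted p = 0.7234, edgeR), and the estimate turned to -0.09 without siFAM53C replicate 2. COL6A1 (ENSG00000142156; chromosome 21, 45981770 to 46005050, plus strand) was measured at 3.566, 2.198 and 2.515 CPM in siCtrl and at 3.893 and 3.268 CPM in siFAM53C. These groups also overlapped, and the log2 fold change of 0.37 was not called (SE 0.33, adjusted p = 0.6421, edgeR). With 1 library left out it ranged from 0.23 (without siCtrl replicate 2) to 0.60 (without siCtrl replicate 1). Unlike COL6A3, COL6A1 was not higher in siCtrl replicate 3 than in the mean of the other siCtrl libraries (-0.15 on the log2 scale).

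COL6A2 (ENSG00000142173; chromosome 21, 46098112 to 46132848, plus strand) was close to the limit of detection. Its raw counts were 11, 4 and 7 under siCtrl and 2 and 1 under siFAM53C. It did not pass the filter on low counts, so it was not tested with the other genes. In sum there were 22 counts in siCtrl and 3 in siFAM53C, a ratio of rates of 0.168 (95% exact interval 0.0323 to 0.56). That interval covers counting error only and not the spread between libraries. In a fit without the filter the adjusted p was 0.599 (edgeR). Because the table lists XBP1 at 0, a low count of COL6A2 was not taken as a low level of its RNA. The same caution holds for the low counts of COL6A1 and COL6A3.

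In siCtrl cells, the order of levels by merged exons was ANTXR2 and ANTXR1 first, then LRP6 at 7.02 ± 0.896, COL6A3 at 0.789 ± 0.247, COL6A1 at 0.498 ± 0.129 and COL6A2 at 0.0652 ± 0.0243 RPKM (SD, n = 3). ANTXR2 and ANTXR1 overlapped, as did COL6A3 (0.61 to 1.07) and COL6A1 (0.397 to 0.644), and the other neighbours were separate in every library. By the longest transcript COL6A3 (1.25 to 2.19) and COL6A1 (0.523 to 0.848) were separate, so their overlap depended on the length used. The median of 14837 tested genes with a length was 3.97 RPKM. ANTXR2 was above 82% of these genes, ANTXR1 above 77.3% and LRP6 above 63.2%, while COL6A3 was above 22.9% and COL6A1 above 17.2%. The values of COL6A1, COL6A2 and COL6A3 stand in this order only as the table lists them, for the reason given above.

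**Figure D3:**
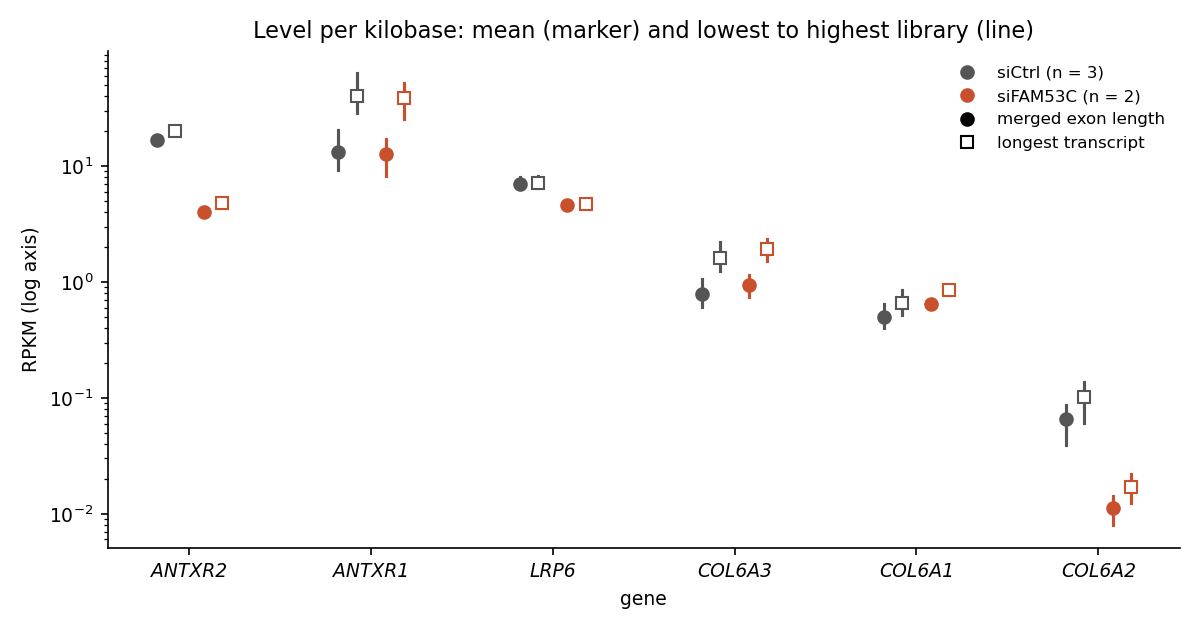
Level per kilobase (RPKM, log axis) of the 6 genes in siCtrl (grey, n = 3) and siFAM53C (orange, n = 2); markers are means, lines run from the lowest to the highest library, filled circles use merged exons and open squares the longest transcript. The 3 collagen VI chains lie below LRP6, and ANTXR1 and ANTXR2 change order with the length used in siCtrl.

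Ratios between the chains were compared because collagen VI is assembled from different chains. Per kilobase of merged exons, COL6A1 divided by COL6A3 was 0.938, 0.65 and 0.424 in siCtrl and 0.949 and 0.512 in siFAM53C, with the groups overlapping. The mean log2 ratio moved by 0.13 (exact two-sided permutation test, p = 0.7, n = 3 and 2). COL6A1 divided by COL6A2 was 7.36, 10.1 and 6.61 in siCtrl and 49.6 and 74.2 in siFAM53C, a shift of 2.94 on the log2 scale (exact p = 0.1), and COL6A2 relative to COL6A3 moved by -2.81 (exact p = 0.1). Both shifts rest on the 1 to 11 counts of COL6A2 in a library. With 3 against 2 libraries there are 10 arrangements and 0.1 is the smallest p possible, and over the 3 ratios the adjusted values were 0.7, 0.15 and 0.15. The longer chains COL6A5 and COL6A6, alternatives to COL6A3, were listed at 0 in every library.

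The genes around these receptors were followed in 8 lists covering 92 genes, of which 76 were tested. Among them 4 were called lower and 2 higher, where 3.21% and 0.404% of all tested genes were, with a median log2 fold change of -0.07, where the median of all tested genes was 0.02. The same shares are the background for each list below. Members of a list share a role and are not replicates.

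In the list of collagen VI binding partners, 1 of 10 tested genes was called lower and none higher (median -0.04). That gene was ITGA2, the integrin alpha 2 subunit of a collagen receptor, at 66.68, 72.37 and 64.07 CPM in siCtrl and at 29.59 and 23.09 CPM in siFAM53C. The groups were well apart (log2 fold change -1.36, SE 0.14, adjusted p = 0.003781, edgeR), and the gene was called under all 15 alternatives run. ITGA1, the alpha subunit of another collagen-binding integrin, had a similar estimate (-1.35) but a wider spread, with siCtrl replicate 3 at 32.9 CPM against 16.26 and 17.95 CPM, and was not called (adjusted p = 0.07587, edgeR; named after its values were seen). Their shared beta subunit ITGB1 stood at -0.09 and FN1, which encodes fibronectin, at 0.13, neither called. None of the 13 enzymes and chaperones that modify and fold collagen chains was called, although 11 of 13 estimates were below 0 (median -0.18, where 48.2% of all tested genes were below 0). The most abundant of them were P4HB, the beta subunit of prolyl 4-hydroxylase, at -0.09 and the collagen chaperone gene SERPINH1 at -0.32 (adjusted p = 0.1888, edgeR), which passed with DESeq2 (adjusted p = 0.03665) and with the term for the library split (adjusted p = 0.02435). None of the 8 genes of matrix uptake and breakdown was called (median 0.02), with the matrix proteases MMP2 at 0.03 and MMP14 at -0.04.

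Of 12 tested genes that process anthrax toxin or take its receptors into the cell, none was called lower and 1 was called higher (median 0.09). SRC, a tyrosine kinase that phosphorylates the receptor tails, was at 46.39, 48.3 and 46.26 CPM in siCtrl and at 65.5 and 66.04 CPM in siFAM53C. The groups were narrow and separate (log2 fold change 0.49, SE 0.10, adjusted p = 0.04296, edgeR), but the call was lost in 5 of 15 alternatives, among them the removal of any single library other than siCtrl replicate 3. FURIN, the protease that cleaves the protective antigen, was not called (0.15), nor were the actin linkers TLN1 (0.15) and VCL (-0.11). The 6 tested MAP kinase kinase genes whose proteins are cut by the lethal factor of the toxin or belong to the same family gave no call (median -0.02), with MAP2K2 at 0.32 and MAP2K3 at 0.25. With the term for the library split both passed (adjusted p = 0.01745 and 0.03417, edgeR).

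Among 23 tested Wnt receptors and LRP6 partners, 2 were called lower and 1 higher (median -0.04). CTNNB1, which encodes beta-catenin, the transcriptional co-activator of the pathway, was at 351.2, 366.2 and 308 CPM in siCtrl and at 199.6 and 191.3 CPM in siFAM53C. Every siFAM53C library lay well below the siCtrl libraries, at 57.2% of their mean (log2 fold change -0.81, SE 0.12, adjusted p = 0.01539, edgeR). GSK3B, a kinase that marks beta-catenin for destruction, was also lower (-0.48, SE 0.10, adjusted p = 0.04786, edgeR), from 116.7, 119.8 and 122.9 CPM to 83.34 and 88.57 CPM. DVL3, a scaffold that relays the signal from the receptors, was higher (0.62, SE 0.11, adjusted p = 0.03221, edgeR), from 120.8, 102.5 and 120.5 CPM to 176.6 and 176.2 CPM. The calls of CTNNB1, GSK3B and DVL3 were each lost when any single library other than siCtrl replicate 3 was left out, and that of GSK3B also with total counts (-0.41, adjusted p = 0.0849) and with relative log expression factors (adjusted p = 0.05002). The close LRP6 relative LRP5 stood at -0.14 (adjusted p = 0.5729) and the abundant secreted protein gene DKK3 at 0.11, neither called.

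Only 4 of 10 genes on the list of Wnt/beta-catenin targets were tested, since NKD1, NKD2, SP5 and APCDD1 were listed at 0, and NOTUM and LGR5 did not pass the filter. All 4 estimates were below 0 (median -1.04), as were 48.2% of all tested genes, and 1 was called lower, where 3.21% of all tested genes were. TNFRSF19, which encodes a receptor of the tumour necrosis factor family, fell from 6.622, 6.227 and 7.701 CPM in siCtrl to 0.9827 and 1.316 CPM in siFAM53C (log2 fold change -2.57, SE 0.30, adjusted p = 0.005657, edgeR), and its longest 3' UTR holds GACAAGA, while those of ITGA2, CTNNB1 and GSK3B, the other list genes called lower, do not. The call of TNFRSF19 was lost when siFAM53C replicate 1 was left out (-2.38, adjusted p = 0.06948). LEF1 (-0.64) and TCF7 (-0.75), transcription factors that bind beta-catenin, were not called. Nor was AXIN2 (-1.32, adjusted p = 0.1505, edgeR), a feedback inhibitor of the pathway. LEF1 passed with the split term (adjusted p = 0.03121, edgeR), and TCF7 did not (-0.49, adjusted p = 0.06635, edgeR). TCF7 passed without a filter (adjusted p = 0.003049, edgeR), in a fit where its SE was 0.19 against 0.46 in the main fit. Its groups overlapped, at 31.84, 34.8 and 11.94 CPM in siCtrl and at 20.22 and 10.82 CPM in siFAM53C. With 1 library left out, the estimate for TCF7 ranged from -1.28 (without siFAM53C replicate 1) to -0.38 (without siFAM53C replicate 2).

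**Figure D4:**
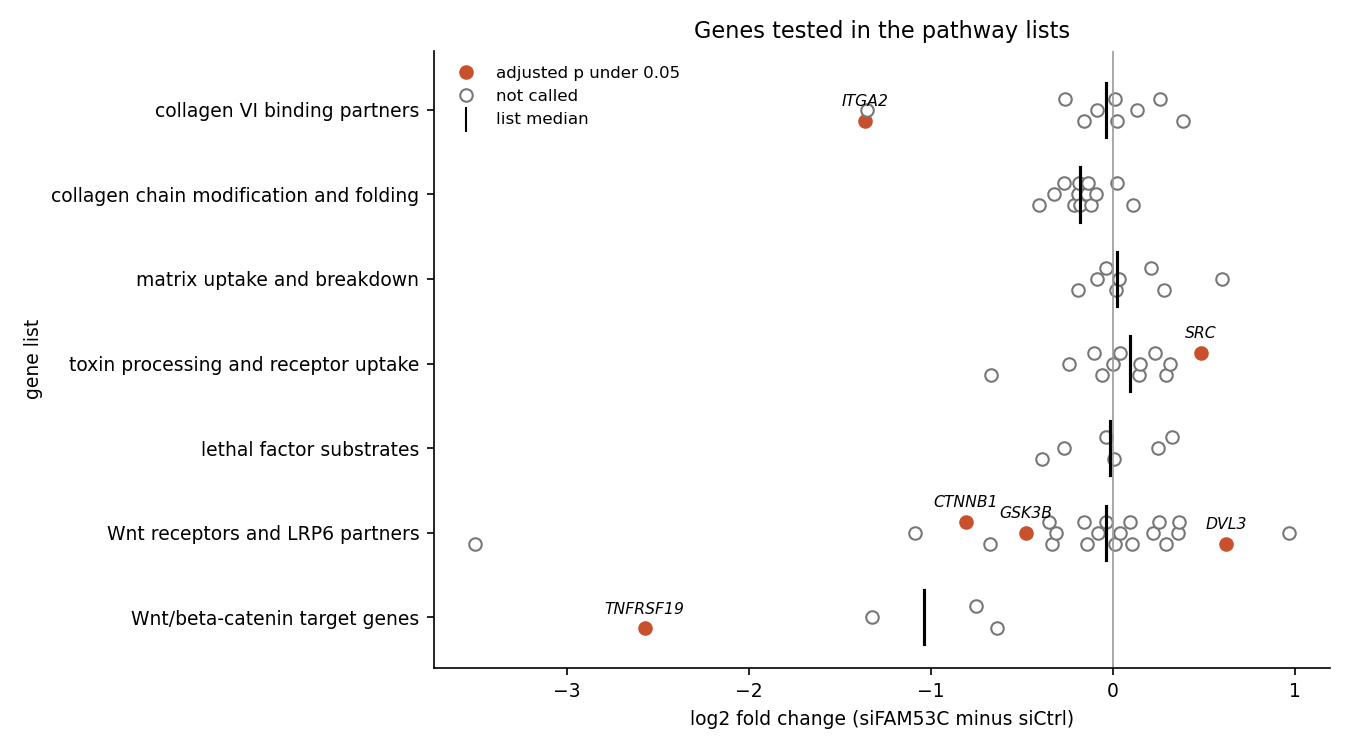
Log2 fold change (siFAM53C minus siCtrl, horizontal axis) of the tested genes in 7 pathway lists; filled orange points passed an adjusted p of 0.05 in the edgeR test and are named, open points did not, and black bars are list medians. Most points lie near 0, with ITGA2, CTNNB1, GSK3B and TNFRSF19 called lower and SRC and DVL3 called higher.

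Of 5 tested mesenchymal markers, 2 were called higher, where 0.404% of all tested genes were. The other 3 had estimates below 0 that were not called (VIM -0.14, PDGFRA -0.55 and THY1 -0.22). COL1A2, also on the list, was not tested (means of 0.21 CPM in siCtrl and 0.17 CPM in siFAM53C). COL1A1, a fibrillar collagen gene, rose from 18.29, 15.8 and 18.6 CPM to 29.18 and 29.41 CPM (0.74, SE 0.14, adjusted p = 0.03569, edgeR), and PDGFRB, a growth factor receptor gene, rose from 40.75, 33.96 and 39.55 CPM to 59.41 and 62.17 CPM (0.67, SE 0.12, adjusted p = 0.02839, edgeR). The summed level of the list was 3852, 4351 and 4465 CPM in siCtrl and 3532 and 4192 CPM in siFAM53C, most of it VIM. Both calls were lost when any single library other than siCtrl replicate 3 was left out, and the part of these markers in the changes above was not tested.

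The genes whose profile over the 5 libraries was most like that of ANTXR2 were sought among the other 9300 tested genes with a mean of at least 10 CPM, by the root mean square distance of log2 CPM after centring on the siCtrl mean. KDELR1, which returns proteins to the endoplasmic reticulum, was nearest (distance 0.0763), at 205.2, 222 and 195.3 CPM in siCtrl and at 48.11 and 45.54 CPM in siFAM53C. TMEM64, a membrane protein gene, followed at 0.121, then the mitochondrial malic enzyme gene ME2 at 0.127, the xylosyltransferase gene GXYLT1 at 0.127 and the kinase gene HIPK2 at 0.133. All 5 had a drop of similar size to that of ANTXR2, with log2 fold changes from -2.15 to -1.90. KDELR1, ME2 and HIPK2 held GACAAGA in their longest 3' UTR, with 1, 2 and 2 copies, while TMEM64 and GXYLT1 held none. Likeness to ANTXR2 selects genes that are lower in siFAM53C, so these values are a description.

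**Figure D5:**
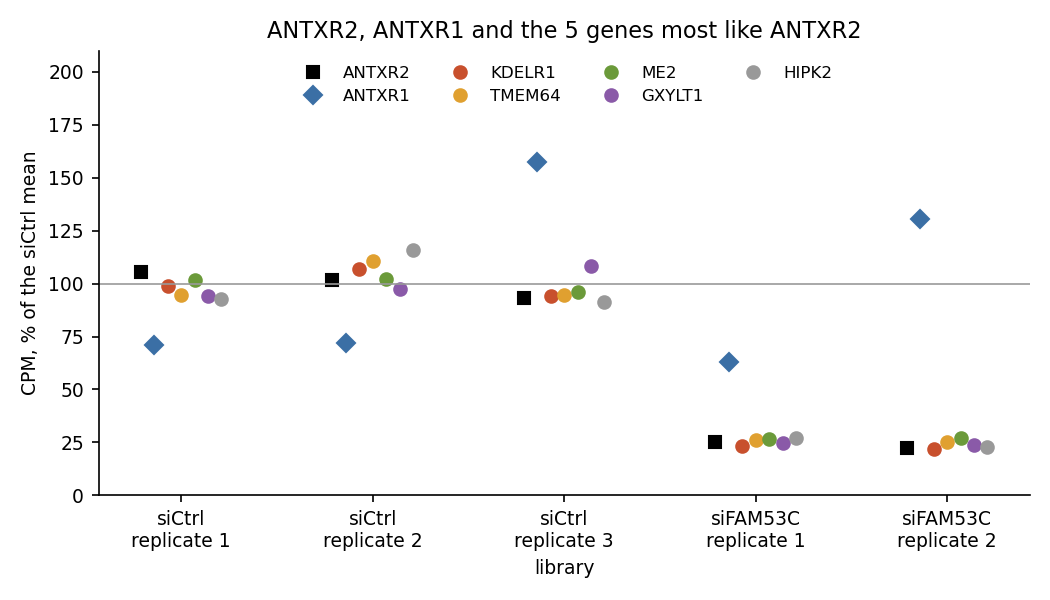
CPM as a percentage of the siCtrl mean (vertical axis) in each of the 5 libraries for ANTXR2 (black squares), ANTXR1 (blue diamonds) and the 5 genes most like ANTXR2 (circles). The 6 similar profiles drop together in both siFAM53C libraries, whereas ANTXR1 is high in siCtrl replicate 3 and siFAM53C replicate 2.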

How the data were processed

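PolyA RNA from 5 RPE-1 libraries was sequenced as paired reads. Per the methods and the processing notes, reads went through cutadapt 2.10 for adapter removal, HISAT2 for alignment (hg38, set to reverse strandedness) and featureCounts, and the authors deposited raw counts per Ensembl gene. The annotation release, the treatment of multiply mapped reads and the strand setting of featureCounts are not given in the sources used here. The methods speak of duplicates where the table holds 3 siCtrl and 2 siFAM53C libraries. Symbols, positions and 3' UTRs came from GENCODE 44, which matched 56105 of 64252 rows; the unmatched rows held 0.491% of the counts. Counts were tested with edgeR 4.0.16 in R 4.3.3 (filterByExpr with a count minimum of 10 and a total of 15, TMM scaling, quasi-likelihood fit with condition only, Benjamini-Hochberg adjustment over 15341 genes, threshold 0.05), tried first on simulated data. CPM and RPKM use TMM library sizes, and log2 CPM a prior count of 2. Each edgeR SE was worked back as the absolute log2 fold change divided by the square root of its quasi-likelihood F statistic. Libraries within a group differed by more than sampling noise (chi-square per gene 9.31 to 45.3), so all were kept as separate samples. DESeq2 1.42.0, limma 3.58.1, other scalings, filters and model terms were tried as alternatives. Named genes were those called in each list plus its 2 most abundant tested genes; ITGA1, FURIN, LRP5 and AXIN2 were added after their values were seen. The members, lists, motif and library split were chosen with earlier results of these data known.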

Additional observations from a re-analysis of the deposited data

How the results depend on the processing

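With 2 libraries in 1 group, counts of calls moved with the processing, and the cause was not tested. Against 493 lower and 62 higher genes (88.8% lower), DESeq2 called 968 and 316 (75.4%), the fit without a filter 987 and 420 (70.1%), total counts 376 and 98 (79.3%), a term for the library split 1493 and 870 (63.2%), and, chosen after seeing the data, a robust fit 533 and 75. Leaving out 1 library gave 105 lower and 5 higher genes at the least (without siFAM53C replicate 1) and 740 and 279 at the most (without siCtrl replicate 3). List genes called lower numbered 7 with DESeq2, 7 without a filter and 12 with the split term, and 1 to 5 with a library left out; list genes called higher numbered 6 with the split term and 0 to 2 with a library left out. The replicate block by titles gave 734 lower and 257 higher genes (74.1% lower) and 7 lower list genes; the block by column names gave 1299 and 594 (68.6%), with 12 list genes lower and 4 higher. The second siFAM53C library is replicate 2 by its title and 3 by its column name. Deviations of pairs by titles correlated at 0.169 and -0.285, and by column names at 0.169 and 0.371, but with only 2 pairs neither was taken as a pairing. Deviations of the 2 siFAM53C libraries from their own mean are exact opposites, so the values within a scheme are not independent. The correlation of siFAM53C replicate 1 was higher with siCtrl replicate 2 (0.285) than with siCtrl replicate 1 (0.169). LRP6 was called under the block by titles (-0.49, adjusted p = 0.04611) and by column names (adjusted p = 0.003267), and without a filter (adjusted p = 0.001343), but not under the robust fit (adjusted p = 0.05302). Without the filter, the SE of ANTXR1 fell from 0.42 to 0.14 and that of ANTXR2 rose from 0.12 to 0.15. P-values of that fit may therefore not follow the spread of each gene between libraries. The block by column names also called SERPINH1 (adjusted p = 0.03076), MAP2K2 (0.39, adjusted p = 0.02422) and LEF1 (adjusted p = 0.02666), and the block by titles called TCF7 (-1.16, adjusted p = 0.02313) and lost SRC (adjusted p = 0.05031).

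The sign for ANTXR1 turned with total counts (0.0175) and under the block by titles (0.35), and its estimate ranged from -0.67 to 0.45 with a library left out. COL6A3 ranged from -0.0920 to 0.55 and the COL6A1 to COL6A3 ratio from -0.314 to 0.574 with a library left out; the COL6A2 to COL6A3 ratio ranged from -3.55 to -2.08. Small estimates also changed sign: MMP14 was 0.0348 with total counts, 0.11 under the block by column names and 0.10 with the split term. With a library left out, MMP14 ranged from -0.326 to 0.19, VCL from -0.231 to 0.00206, DKK3 from -0.0909 to 0.271 and FN1 from -0.0401 to 0.345. FAM53C and ITGA2 kept their direction and call under all 15 alternatives, and ANTXR2 its direction.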
